A study of Mus musculus with 33 samples.

Results

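The transcripts of 10 genes were followed in 33 single heart cells: geminin (Gmnn), the origin licensing factors Cdt1 and Cdc6, the ubiquitin ligase receptors Dtl and Skp2, and 5 genes of the anaphase-promoting complex or cyclosome (APC/C) pathway, Fbxo5, Fzr1, Cdc20, Ube2c and Ube2s. They were taken by gene symbol from a table of 14862 genes, and all 10 were found. The rule used no measured value, but the genes were proposed with earlier results of these data known. The mice carried mAG-hGem, a green fluorescent protein fused to human geminin sequence, from the FUCCI cell cycle reporter. Ventricular cells were taken at embryonic day 14.5 (E14.5) or postnatal day 5 (P5) and sorted by the mAG-hGem signal, which gave 10 positive and 11 negative embryonic cells and 6 of each sort at P5. Every group shares the transgene, and what drives it, the strain, the sex and the number of animals are not given in the sources used here. The labels call all 33 single cardiomyocytes, accepted after PCR of each cell's cDNA for the cardiomyocyte gene Tnnt2 and for a marker of other cells.

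Since each sample is 1 cell and no animal is named, a group counts as 1 sample and the groups could not be tested against each other. Levels are given as CPM, the counts of a gene per 1000000 counts of that cell or group. Ratios between groups are log2 ratios of CPM from summed counts, with a 95% exact binomial interval that covers counting error only and is far narrower than the spread between cells. Ratios with a cell left out, in a title number range or of listed partner genes have 0.5 count added to each side. Totals ran from 2.55 to 38.5 M counts per cell, where 1 M is 1000000, with a median of 12.8 M. The E14.5 titles carry numbers from 1 to 10 or from 21 to 30, and the labels do not say what these ranges mean. Positive cells numbered 1 to 10 held 8.40 to 12.8 M counts and those numbered 21 to 30 held 16.8 to 38.5 M, so the number range and depth move together. The P5 titles begin with L1 (1 positive and 1 negative cell) or L2 (5 of each), and what this prefix means is not given either.

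The cell type label did not hold for every cell. Summed over 11 cardiomyocyte markers, the E14.5 positive cells had 13273 to 33401 CPM and the E14.5 negative cells 13706 to 33699 CPM. One E14.5 negative cell, N10, had more of the fibroblast and mural markers (46245 CPM) than of the cardiomyocyte markers (20487 CPM). Of the P5 positive cells, 5 of 6 were led by cardiomyocyte markers, and L2P12 had 4615 CPM of endothelial against 61.9 CPM of cardiomyocyte markers. None of the 6 P5 negative cells was led by cardiomyocyte markers, whose sum there was 0.276 to 344 CPM. L2N4, L2N7 and L2N9 were led by endothelial markers, L1N3 and L2N10 by red blood cell markers and L2N12 by fibroblast and mural markers. L1N3 and L2N10 also held endothelial markers, at 3180 and 4008 CPM, beside 4927 CPM in L2N7. At P5 the sort therefore cannot be told apart from cell type, and every P5 positive against negative value below carries that limit.

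Replication origins are licensed when Cdc6 and Cdt1 load the Mcm helicase onto DNA. Geminin binds Cdt1 and prevents loading from happening again after S phase has begun, while the ligase receptors Dtl (in a Cul4 ligase) and Skp2 (in an SCF ligase) direct Cdt1 to degradation. Geminin is itself degraded by the APC/C in late mitosis and G1, when the complex carries the activator Fzr1, also called Cdh1. Cdc20 is the mitotic activator of the same complex, Ube2c is its chain-starting and Ube2s its chain-extending E2 enzyme, and Fbxo5, also called Emi1, inhibits it from S phase to early mitosis. The reporter follows this cycle of protein degradation, so its fluorescence and the level of the endogenous Gmnn transcript are separate quantities. In the heart most cardiomyocytes leave the cell cycle in the first weeks after birth.

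Promoter windows of 100 bases before the transcription start are shown for 3 genes on which the results below turn: Dtl, found mostly with Cdt1 in cells of both sorts, and Cdc20 and Ube2c, highest in the positive cells. The windows, from RefSeq on mouse build GRCm38.p6, are chr1:191575545-191575644 for Dtl (minus strand), chr4:118437344-118437443 for Cdc20 (minus strand) and chr2:164769829-164769928 for Ube2c (plus strand). They end at the base before the start site and lie outside the gene models. Capitals mark an E2F match (the letters TTCCCGC or the related forms TTGGCGC as well as TTCGCGC and also TTGCCGC) in Dtl, and a match to the cell cycle genes homology region, or CHR (TTTGAA or TTCGAA), in the other two. Both strands were searched, and the Ube2c match is on the reverse strand.
Dtl: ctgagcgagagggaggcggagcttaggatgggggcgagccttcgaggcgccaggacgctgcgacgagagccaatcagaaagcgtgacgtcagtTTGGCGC
Cdc20: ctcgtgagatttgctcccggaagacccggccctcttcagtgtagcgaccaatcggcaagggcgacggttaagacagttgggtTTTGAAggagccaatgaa
Ube2c: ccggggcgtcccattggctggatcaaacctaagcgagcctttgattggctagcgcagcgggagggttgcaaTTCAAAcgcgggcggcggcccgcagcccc
The E2F match of Dtl begins at base -7, and the CHR matches begin at base -18 in Cdc20 and base -29 in Ube2c, counted back from the start site. E2F sites are known from genes of the G1/S boundary and CHR elements from genes of G2 and mitosis. Over the 9 members with a window in the table, Skp2 having 2 windows, CHR letters were found in 3 members (Skp2 is the other one), E2F letters in 1 and the CCAAT box in 5 (Dtl, Fbxo5, Fzr1, Cdc20 and Ube2c). Among 32851 mouse windows of the same length, 6.13% held the CHR letters, 3.73% the E2F letters and 18.9% a CCAAT box. Skp2, which has CHR letters, was at least 2-fold lower in the summed positive cells at both ages, and Cdt1 and Cdc6 had no E2F letters. A match describes the letters only, and no binding was measured. Whether the letters relate to the levels was not tested.

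**Figure D1:**
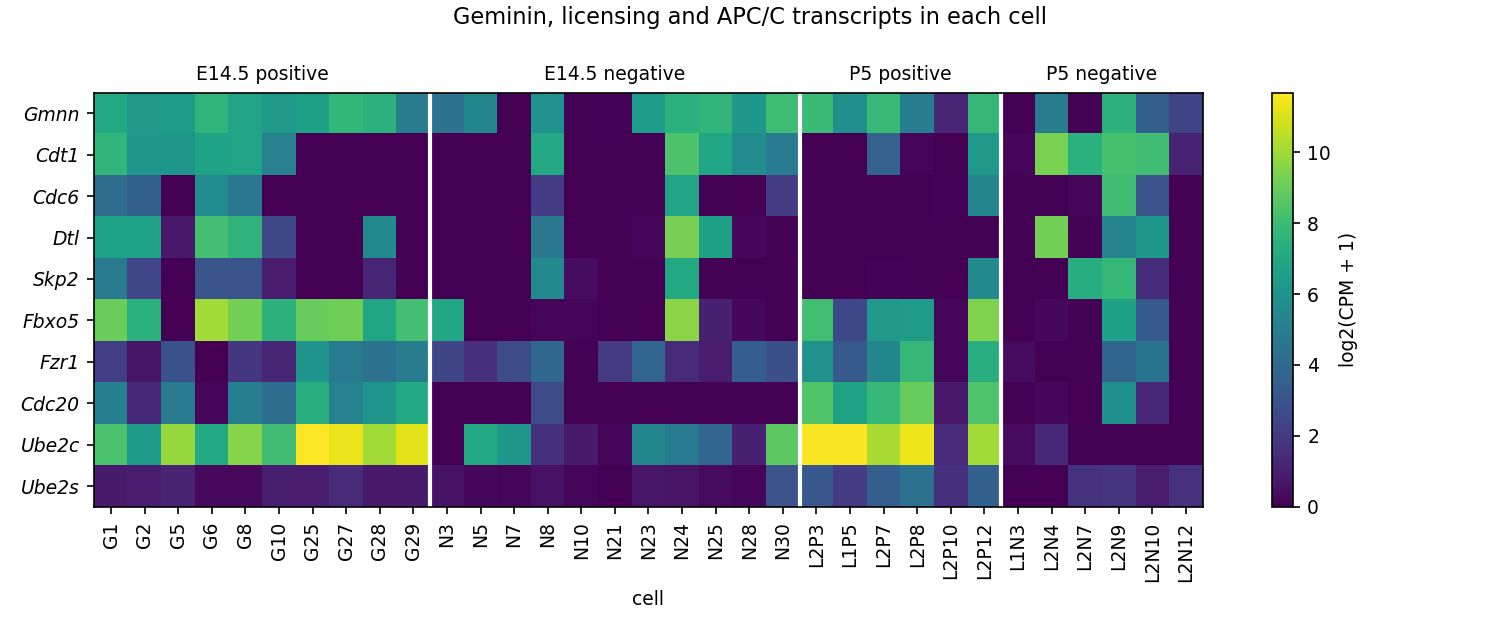
Heat map of log2(CPM + 1) for the 10 genes (rows) in each of the 33 cells (columns), with white lines between the 4 groups and cells ordered by the number in their title. Ube2c and Fbxo5 are bright in most positive cells, Cdc20 is dark in all E14.5 negative cells but N8, and Cdt1 and Dtl form blocks that do not follow the sort.

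Over all E14.5 cells, the geminin transcript itself separated the sorted groups poorly. Gmnn (chr13:24751845-24761937) ranged from 29.7 to 213 CPM in the 10 positive cells, with a median of 104, and from 0 to 262 CPM in the 11 negative cells, with a median of 60.0. The groups overlapped: the highest cell of all, N30, was sorted as negative, and no positive cell lay above it. All 10 positive cells reached 10 CPM, and 8 of the 11 negative cells did (72.7%). The 3 negative cells below that level were N7, N10 and N21, of which N7 had no Gmnn count. From summed counts, Gmnn stood at 135 CPM in the positive sort against 100.04 CPM in the negative sort, a log2 ratio of 0.44 (0.41 to 0.46). The ratio was 2.28 among cells numbered 1 to 10 and 0.18 among those numbered 21 to 30. That contrast followed the negative cells, whose Gmnn reached at most 60.0 CPM in the first range and had a median of 132 CPM in the second. In the first range the 6 positive cells held 78.1 to 197 CPM, so the sorts overlapped only in the second. How many of all genes lacked overlap in the first range was not counted.

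At P5, Gmnn separated the groups further but again with overlap. The 6 positive cells held 57.4 (L1P5), 249 (L2P3), 236 (L2P7), 29.9 (L2P8), 1.35 (L2P10) and 222 CPM (L2P12). The 6 negative cells ranged from 0 to 181 CPM, with a median of 7.46, and L2N9 alone held 84.0% of their Gmnn counts. The log2 ratio was 2.27 (2.20 to 2.33), and it was 4.71 without L2N9 and 1.66 without L2N7. Between ages, Gmnn of the positive cells was level at 138 CPM (P5) against 135 CPM (E14.5), a log2 ratio of 0.03 (0.00 to 0.06). L2P10, sorted as positive, had 12.6 M counts, and none of the 10 genes exceeded 2.07 CPM in it.

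Cdt1, the loading factor that geminin binds, was found in cells of both sorts and mostly together with Gmnn. Its level in E14.5 positive cells (chr8:122568015-122573130) ranged from 0 to 204 CPM with a median of 51.9, and in negative cells from 0 to 345 CPM with a median of 0. The groups overlapped fully, with 6 of 10 positive and 5 of 11 negative cells at 10 CPM or more. All 6 positive cells numbered 1 to 10 had Cdt1, at 32.8 to 204 CPM. The 4 positive cells numbered 21 to 30 had no Cdt1 count in 99.6 M counts, which by an exact Poisson interval allows up to 0.0370 CPM. Those 4 cells were the more deeply sequenced ones. Cdt1 was lower in the summed positive cells, with a log2 ratio of -1.01 (-1.06 to -0.97), but N24 held 55.8% of the negative counts and the ratio was -0.02 without it. Among cells numbered 1 to 10 the ratio was 1.73.

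In the P5 cells Cdt1 was mostly on the negative side. It reached 177 to 653 CPM in 4 of the 6 negative cells (L2N4, L2N7, L2N9 and L2N10), while the other two had at most 1.19 CPM. Among the P5 positive cells it was at 75.6 CPM in L2P12 and 11.7 CPM in L2P7, and at most 0.112 CPM in the other 4. The sort gave a log2 ratio of -3.24 (-3.31 to -3.17), and -6.46 without L2P12. The 4 negative cells with Cdt1 were led by endothelial or red blood cell markers, and the P5 positive cell with the most Cdt1 was the one led by endothelial markers. Across all 33 cells, 16 had at least 10 CPM of both Cdt1 and Gmnn, 10 of Gmnn alone and 1, L2N7, of Cdt1 alone. That pair of genes was chosen for counting after the values were seen. Their Spearman correlation was 0.12 over the 10 E14.5 positive cells, 0.83 over the 6 of them numbered 1 to 10 and 0.66 over the 11 E14.5 negative cells. The 10 positive and the 11 negative cells each span both number ranges and differ in depth. Whether the correlations follow these was not tested.

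Cdc6, which recruits Cdt1 to the origin, was found in fewer cells than Cdt1. It (chr11:98907709-98923942) was found in 4 of 10 E14.5 positive cells, at 11.2 (G2), 17.1 (G1), 23.03 (G8) and 49.7 CPM (G6), and was at 0 in the other 6. All 4 were numbered 1 to 10. In the E14.5 negative cells it reached 112 CPM in N24 and at most 3.14 CPM elsewhere. N24 held 96.5% of the negative counts, so the log2 ratio of -1.17 (-1.27 to -1.06) became 3.49 without that cell. Among P5 cells only L2P12 (38.9 CPM) and L2N9 (274 CPM) exceeded 10 CPM, and both were led by endothelial markers. The P5 log2 ratio of -1.99 became 2.69 without L2N9 and -10.77 without L2P12, when 1 positive count was left.

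Dtl, which hands Cdt1 to a Cul4 ligase during S phase, was found in single cells of both sorts at E14.5 and, but for 1 count, on the negative side at P5. Its values at E14.5 (chr1:191537356-191575544) were 0 to 289 CPM in positive cells, with a median of 26.1, and 0 to 623 CPM in negative cells, with a median of 0.0593. The positive cells fell apart: 5 lay at 47.4 CPM or more and the other 5 at 4.75 CPM or less. N24 held 84.7% of the negative counts, and the log2 ratio of -0.79 (-0.82 to -0.75) became 1.74 without it. The P5 positive cells had 1 Dtl count among them, in L2P12, against 4514 counts in the P5 negative cells, of which L2N4 held 67.6%. The log2 ratio was -12.29 with a counting interval of -17.60 to -9.81. Against the E14.5 positive cells, where 8039 counts were found, it was -12.19 (-17.50 to -9.72).

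Skp2, the F-box receptor of the SCF ligase, was high in a few single cells, most of them sorted as negative. At E14.5 (chr15:9111982-9155425) it reached 27.4 CPM in G1 and at most 7.15 CPM in the other 9 positive cells, with a median of 1.11. The negative cells N24 and N8 held 136 and 46.2 CPM, and the other 9 at most 0.320 CPM. The log2 ratio of -2.68 (-2.82 to -2.54) was -0.18 without N24. At P5, L2N9 (218 CPM), L2N7 (155 CPM) and L2P12 (47.7 CPM) exceeded 10 CPM, and all 3 were led by endothelial markers. The log2 ratio of P5 positive over negative was -2.82, and -11.16 without L2P12, when 2 positive counts were left.

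Fbxo5, the APC/C inhibitor, was higher on the positive side at both ages. In 9 of the 10 E14.5 positive cells (chr10:5799158-5805465) it lay between 120 and 1080 CPM, and the tenth, G5, had no count. Of the 11 negative cells, N24 had 814 and N3 had 127 CPM, and the other 9 had at most 1.07 CPM. The summed level was 403 against 101 CPM, a log2 ratio of 1.99 (1.97 to 2.02), and because N24 held 96.0% of the negative counts the ratio was 6.44 without it. The P5 positive cells held 4.72 (L1P5), 285 (L2P3), 76.3 (L2P7), 84.6 (L2P8), 0.159 (L2P10) and 683 CPM (L2P12). The P5 negative cells had at most 9.26 CPM except L2N9, at 101 CPM. The P5 log2 ratio was 4.05 (3.97 to 4.14), ranging from 2.86 without L2P12 to 7.03 without L2N9.

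Fzr1, the activator that directs the APC/C to geminin in G1, was low in both sorts at E14.5 except in the deeper positive cells. In E14.5 positive cells (chr10:81366879-81378370) it ranged from 0 to 66.2 CPM, with a median of 5.07, and in negative cells from 0.0534 to 13.9 CPM, with a median of 4.51. The 4 positive cells numbered 21 to 30 (20.2 to 66.2 CPM) were above every negative cell, and the 6 numbered 1 to 10 (0 to 6.64 CPM) were not. Accordingly the log2 ratio was 1.77 (1.67 to 1.87) over all cells, 2.25 among those numbered 21 to 30 and -0.92 among those numbered 1 to 10. At P5 the positive cells held 9.04 (L1P5), 63.5 (L2P3), 40.2 (L2P7), 221 (L2P8), 0.159 (L2P10) and 164 CPM (L2P12). The negative cells ranged from 0 to 22.5 CPM, and the log2 ratio was 4.42 (4.29 to 4.56).

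Cdc20, the mitotic activator, was the gene of the 10 for which the most E14.5 positive cells, 8 of 10, lay above every negative cell. Its level in the positive cells (chr4:118432901-118437343) was 0.115 (G6), 1.43 (G2) and 17.6 to 166 CPM in the other 8, with a median of 31.9. In the negative cells it was 5.13 CPM in N8, 0.0593 CPM in N30 and 0 in the other 9. Thus 8 of 10 positive cells (80%) and 0 of 11 negative cells reached 10 CPM. The log2 ratio was 7.52 (7.17 to 7.89), from 9624 against 65 counts, and 12.86 without N8, when 1 negative count was left, in N30. At P5, 5 of 6 positive cells held 105 to 498 CPM, and L2P10 0.716 CPM. Of the negative cells only L2N9, at 57.6 CPM, exceeded 1.45 CPM, and the log2 ratio was 5.36 (5.25 to 5.48), or 10.02 without L2N9.

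Ube2c, the E2 that starts ubiquitin chains on APC/C substrates, was counted in every positive cell at both ages. It (chr2:164769929-164772902) ranged from 81.7 to 3290 CPM in E14.5 positive cells, with a median of 842, and from 0 to 424 CPM in negative cells, with a median of 12.9. Overlap was limited to N5 (134 CPM) and N30 (424 CPM), since the other 9 negative cells lay below the lowest positive cell. The log2 ratio was 4.78 (4.75 to 4.81), and 6.06 without N30. The 4 positive cells numbered 21 to 30 (1073 to 3290 CPM) were above the 6 numbered 1 to 10 (81.7 to 936 CPM). At P5 the positive cells held 3145 (L1P5), 3147 (L2P3), 1179 (L2P7), 2696 (L2P8), 1.67 (L2P10) and 1078 CPM (L2P12). The 6 negative cells held at most 1.55 CPM, so the groups did not overlap. That margin was narrow, resting on 21 counts in L2P10 and 8 counts in L2N4, the highest negative cell. The log2 ratio there, 13.88 (13.00 to 14.94), rests on 10 counts in the negative cells.

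Ube2s, the E2 that extends the chains, was near the detection level in embryonic cells and differed by age. It (chr7:4808014-4812340) ranged from 0.231 to 1.74 CPM in E14.5 positive cells and from 0 to 6.998 CPM in negative cells. The log2 ratio of 0.14 (-0.18 to 0.46) became 1.64 without N30. The P5 positive cells held 3.14 (L1P5), 7.88 (L2P3), 10.7 (L2P7), 19.2 (L2P8), 2.07 (L2P10) and 11.4 CPM (L2P12), all above every E14.5 positive cell. That gave a log2 ratio by age of 3.55 (3.31 to 3.80) from 1058 against 155 counts. Against the P5 negative cells, which reached 2.45 CPM, 5 of 6 positive cells were higher and the log2 ratio was 2.76 (2.501 to 3.02).

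**Figure D2:**
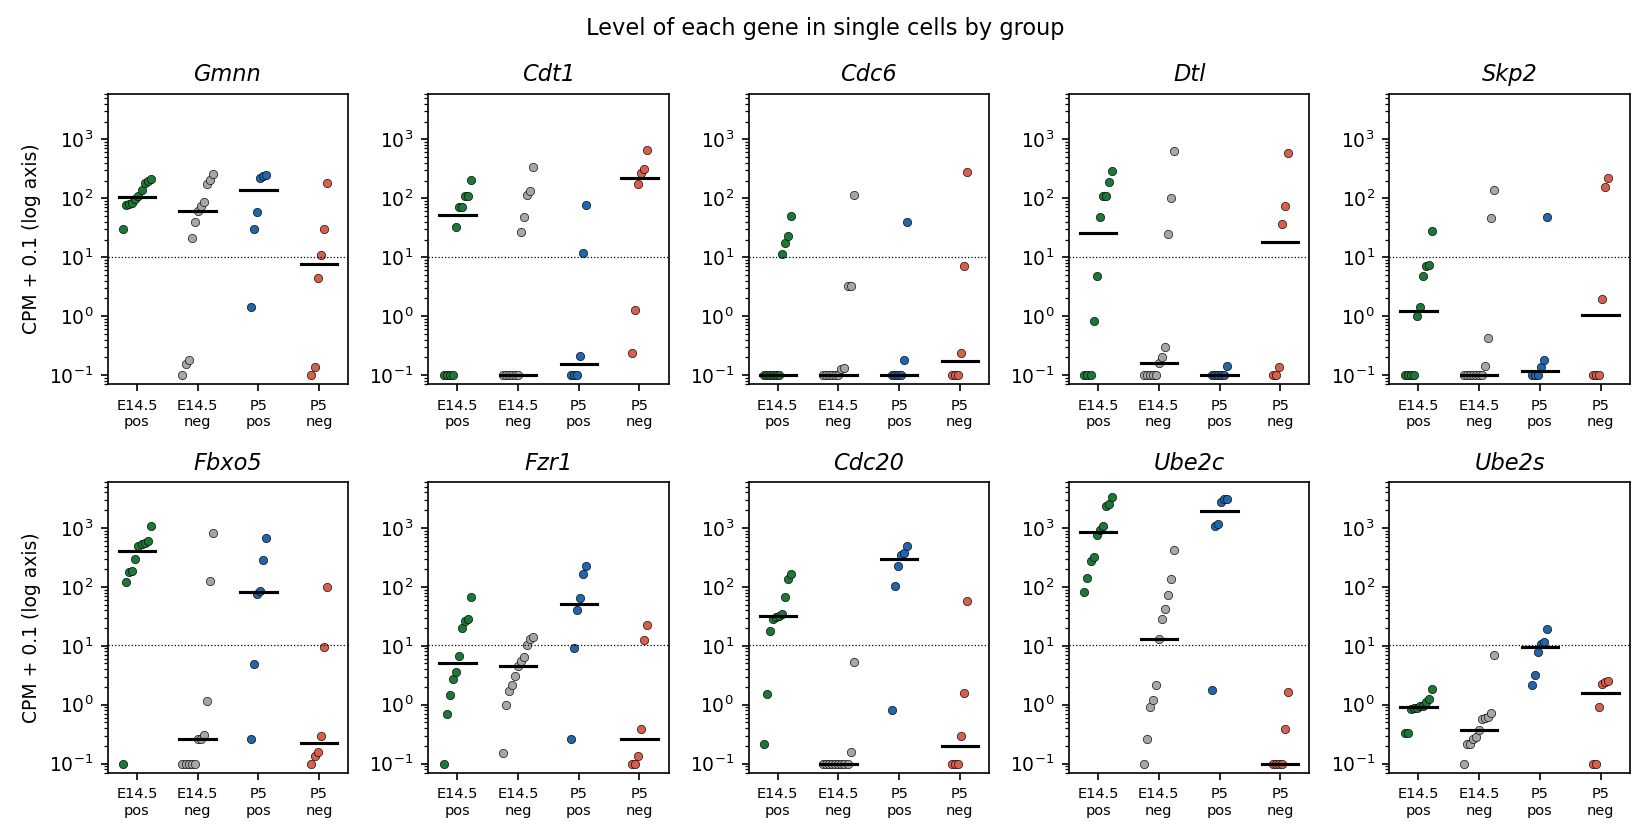
Level of each gene in each cell as CPM + 0.1 on a log axis, 1 panel per gene, with a point for each cell, a bar at the median of the group and a dotted line at 10 CPM. Cdc20 and Ube2c lie highest in the positive groups at both ages, Gmnn overlaps between the E14.5 groups, and Ube2s lies higher in the P5 positive cells (2.07 CPM or more) than in any E14.5 positive cell (1.74 CPM or less).

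Counted together at E14.5, 4 of the 10 genes were at least 2-fold higher in the positive cells (Fbxo5, Fzr1, Cdc20 and Ube2c), 3 were at least 2-fold lower (Cdt1, Cdc6 and Skp2) and 3 lay within 2-fold (Gmnn, Dtl and Ube2s). Over all 12633 genes with 10 or more counts, 22.4% were at least 2-fold higher and 29% at least 2-fold lower, so counts of this size are common in these cells. In 0.198% of those genes every positive cell exceeded every negative cell, and none of the 10 was among them. At P5, 6 genes were at least 2-fold higher in the positive cells (Gmnn and the 5 APC/C pathway genes) and 4 at least 2-fold lower (Cdt1, Cdc6, Dtl and Skp2). The background there was 34.2% higher and 39.4% lower of 11567 genes. Every positive cell was higher than every negative cell in 1.43%, as for Ube2c, there by a narrow margin in L2P10. The 4 genes lower in the P5 positive cells were the licensing factors and the ligase receptors for Cdt1, and their counts rest on few cells, as given above.

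The age comparison of positive cells shares its cells with both sort comparisons, and each gene's values are therefore set side by side. Fzr1, Cdc20, Ube2s and Skp2 were at least 2-fold higher in P5 than in E14.5 positive cells, Dtl was at least 2-fold lower, and the other 5 lay within 2-fold. Of all 12262 genes, 30.3% were at least 2-fold higher, 40.9% lower, and 0.261% had every P5 positive cell above every E14.5 positive cell, as Ube2s did. Cdc20 stood at 326 against 60.9 CPM, a log2 ratio of 2.42 (2.39 to 2.45), and Fzr1 at 121 against 20.996 CPM, a log2 ratio of 2.52 (2.46 to 2.58). Ube2c was level, at 1814 against 1608 CPM with a log2 ratio of 0.17 (0.16 to 0.18). Without L2P12, the cell led by endothelial markers, the log2 ratio of Skp2 turned from 1.96 to -6.38, that of Cdc6 from 0.63 to -8.16 and that of Cdt1 from -0.86 to -4.08. The P5 positive cells then held 2 counts of Skp2 and 1 of Cdc6. In the 5 cells led by cardiomyocyte markers, Cdc20 (2.38), Fzr1 (2.34) and Ube2s (3.55) remained at least 2-fold higher than in E14.5 positive cells, and Fbxo5 was lower (-1.89).

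**Figure D3:**
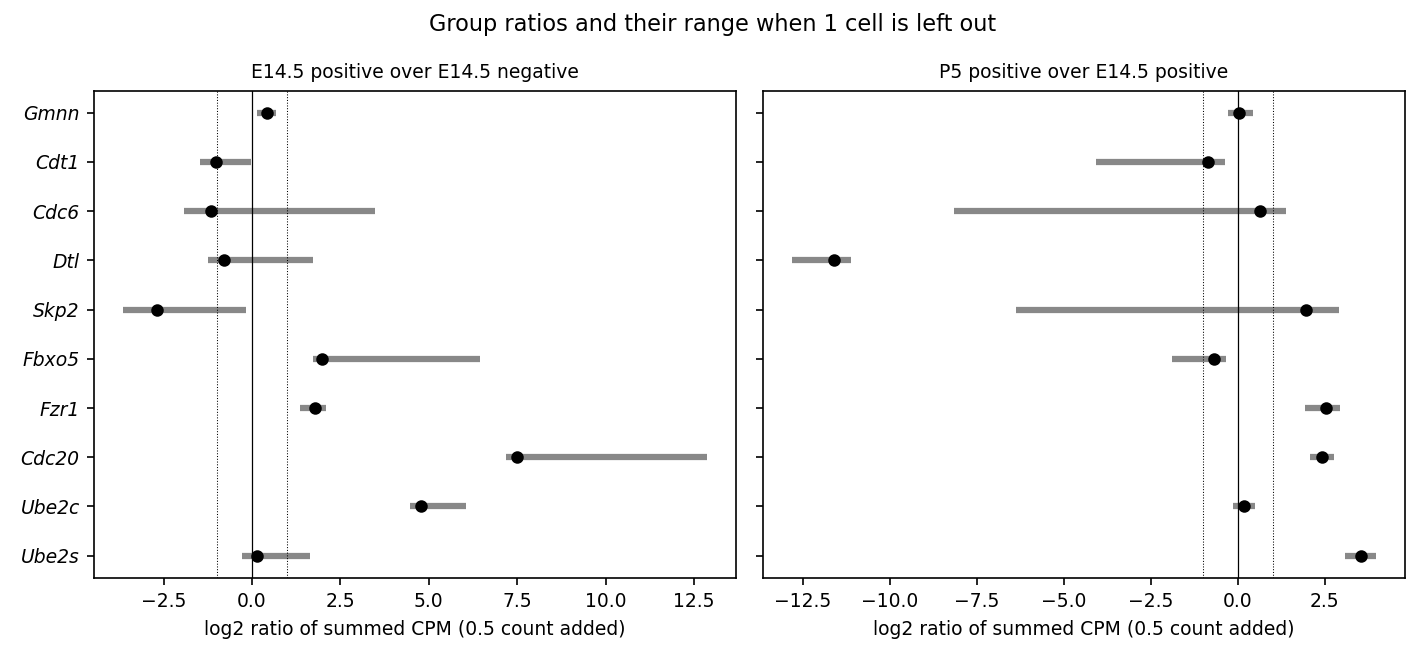
Log2 ratio of summed CPM with 0.5 count added to each side for each gene (black points), with the range of values found when each cell in turn is left out (grey bars) and dotted lines at 2-fold; left, E14.5 positive over negative, right, P5 over E14.5 positive. Cdc20, Ube2c, Fzr1 and Fbxo5 stay on the higher side at E14.5, whereas Cdc6 runs from -1.93 to 3.49 and, by age, Skp2 from -6.38 to 2.92.

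For the negative cells, the age comparison crosses from cardiomyocyte-led to other cells. Cdt1, Cdc6, Skp2 and Cdc20 were at least 2-fold higher in P5 negative cells and Gmnn, Fbxo5 and Ube2c at least 2-fold lower, beside a background of 33.6% higher and 41.7% lower. Ube2c was at 0.121 CPM in P5 and 58.6 CPM in E14.5 negative cells, a log2 ratio of -8.93 (-9.99 to -8.05). Single cells decided several of the others. The ratio of Cdc20 went from 4.57 to -0.10 and that of Cdc6 from 1.45 to -3.22 without L2N9, and that of Fbxo5 from -2.75 to 1.69 without N24.

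The sums of the licensing side and of Cdc20 with Ube2c differed by number range among the E14.5 positive cells, and most cells with licensing transcripts carried both. At 10 CPM or more, 13 of 33 cells had both sums, 5 the licensing sum alone and 9 the other sum alone. All 10 E14.5 positive cells had the Cdc20 and Ube2c sum, 7 of them with the licensing sum and 3 without it. Summed over Cdt1, Cdc6, Dtl and Skp2, E14.5 positive cells numbered 1 to 10 had 38.4 to 454 CPM, with a median of 264, and those numbered 21 to 30 had 0 to 48.8 CPM, with a median of 0. For Cdc20 and Ube2c together the first range gave 83.1 to 964 CPM and the second 1141 to 3456 CPM, without overlap. The summed S phase reference genes had medians of 4622 and 2282 CPM, and the mitotic reference genes 2732 and 7253 CPM, in the same order. In the 6 P5 positive cells the licensing sum had a median of 0.115 CPM and a highest value of 162 CPM in L2P12. Both sums were chosen after the values were seen.

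**Figure D4:**
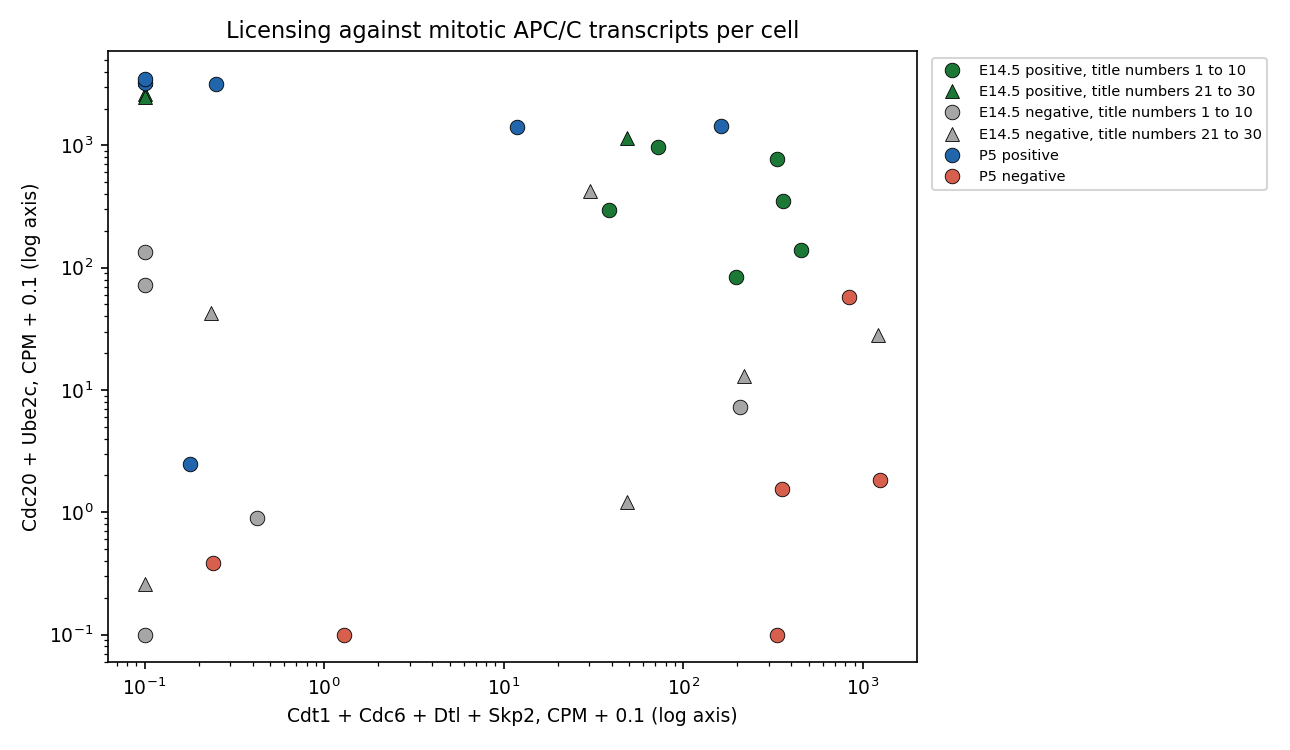
Summed CPM of Cdt1, Cdc6, Dtl and Skp2 (x axis) against summed CPM of Cdc20 and Ube2c (y axis) in each cell, with 0.1 added, both axes logarithmic, circles for E14.5 titles numbered 1 to 10 and for P5 and triangles for E14.5 titles numbered 21 to 30. Of the E14.5 positive triangles 3 of 4 lie at the left edge with no licensing count, and the E14.5 positive circles lie at the right between 38.4 and 454 CPM.

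Cell by cell, combinations at 10 CPM were counted for pairs of genes chosen after the values were seen. Of the E14.5 positive cells, 3 had both Dtl and Cdc20, 2 Dtl alone and 5 Cdc20 alone, so each of the 10 had at least 1 of them. All 5 with Dtl had Ube2c as well, but so did all 10 E14.5 positive cells. Cdt1 and Cdc20 were together in 4 of the 10 and in 7 of all 33 cells. Among the E14.5 negative cells 3 had Dtl alone and 8 had neither. In the P5 positive cells Cdc20 came without Dtl in 5 of 6. Cdc6 and Fzr1 were never together at 10 CPM in the E14.5 positive cells, where 4 had Cdc6 alone, 4 had Fzr1 alone and 2 had neither. All 4 with Cdc6 were numbered 1 to 10 and all 4 with Fzr1 were numbered 21 to 30. This split therefore cannot be told apart from number range and depth. Fbxo5 accompanied Fzr1 in all 4 of the E14.5 positive cells and all 4 of the P5 positive cells that had Fzr1. With or without Fzr1, Fbxo5 reached 10 CPM in 9 of 10 E14.5 and 4 of 6 P5 positive cells. N24 stood apart in the negative sort: 7 of the 10 genes reached 10 CPM there, its licensing sum was 1215 CPM, and its Cdc20 count was 0.

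Partner genes of the same machinery were counted by list at E14.5, beside 22.4% higher and 29% lower over all genes. Of 16 APC/C substrates, 15 were at least 2-fold higher in positive cells, 0 were lower and the median log2 ratio was 4.35, against a median of -0.16 over all genes tested. Ccnb1, the mitotic cyclin, stood at 564 against 0.205 CPM (log2 ratio 11.41). Tpx2, the activator of the kinase Aurka, had a log2 ratio of 2.43, and Pttg1, or securin, the one substrate within 2-fold, had 26.2 against 29.5 CPM (-0.17). All 15 mitotic reference genes, several of which are also substrates, were at least 2-fold higher, with a median of 4.97, and the spindle protein gene Hmmr stood at 251 against 0.0358 CPM (12.68). Of 6 measured inhibitors and checkpoint genes 4 were higher and 0 lower, with a median of 2.505, led by the checkpoint genes Ttk (67.1 against 5.42 CPM) and Mad2l1 (128 against 11.2 CPM).

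For the other lists the counts lay closer to the shares over all genes, 22.4% higher and 29% lower. Of 14 APC/C subunit genes 3 were at least 2-fold higher and 2 lower in E14.5 positive cells, with a median log2 ratio of 0.08. Anapc10, a substrate-recognition subunit, stood at 19.9 against 4.79 CPM, and Anapc16 at 130 against 268 CPM. Of 14 origin recognition and Mcm genes 2 were higher and 2 lower, with a median of -0.29. Mcm6, of the helicase, stood at 145 against 309 CPM (-1.09), and Orc2, of the origin recognition complex, at 77.3 against 27.2 CPM (1.51). Of 12 origin firing genes 4 were higher and 1 lower, with a median of 0.57. Of 18 S phase reference genes 4 were higher and 3 lower, with a median of 0.09. The SCF and Cul4 partners and substrates had 1 higher, 1 lower and 9 within 2-fold of 11: the SCF cofactor Cks1b stood at 982 against 223 CPM (2.14), and the cyclin-dependent kinase inhibitor Cdkn1c at 241 against 606 CPM (-1.33). Mcidas and Gmnc, the geminin relatives, were searched for by symbol and not found among the genes counted.

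Between the ages of positive cells, the counts stand beside 30.3% higher and 40.9% lower over all genes. Of the 14 origin recognition and Mcm genes, 1 was at least 2-fold higher and 9 lower at P5, with a median log2 ratio of -1.24 against -0.39 over all genes. Origin firing genes had 1 higher and 6 lower of 12, with a median of -0.999. The S phase reference had 1 higher and 4 lower of 18 (median -0.22). The SCF and Cul4 partners and substrates had 1 higher and 4 lower of 11 (-0.97). The inhibitors and checkpoint genes had 2 higher and 0 lower of 6 (0.52). The APC/C substrates had 9 higher and 1 lower of 16 (median 1.06), the APC/C subunits 6 higher and 2 lower of 14 (0.74), and the mitotic reference 5 higher and 0 lower of 15, with no direction in its median (0.01). Pttg1 went from 26.2 to 96.8 CPM (1.89), Cdc23, an APC/C subunit, from 0.519 to 5.45 CPM (3.39), and Cdkn1c from 241 to 0.814 CPM (-8.20). In the P5 sort comparison all 16 substrates were at least 2-fold higher in the positive cells (median 3.99), and 9 of 13 measured licensing genes were at least 2-fold lower (median -1.27), with cell type again on both sides.

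The genes whose levels ran most like 3 of the members were ranked by the mean of 2 Spearman correlations, over the 10 positive and over the 11 negative E14.5 cells, among 4000 genes. Most like Gmnn was Fignl1 (0.82 and 0.86), followed by Morc3, Rpl7l1, Hnrnpab and Rbbp7. Most like Cdc6 was Mcm6 (0.82 and 0.78), followed by Mgat2, Gins2, Pcna and Cab39l, of which Mcm6, Gins2 and Pcna encode replication fork proteins. Most like Ube2c was Rpl32 (0.84 and 0.94), with Tubb4b, Stmn1 and Hn1 also among the 5, where Rpl32 is a ribosomal protein gene whose near-identical copies may share reads. The cells of each sort differ in depth and span both number ranges. Over the 6 positive cells numbered 1 to 10 alone, the coefficient was 0.77 for Fignl1 with Gmnn, 0.70 for Mcm6 with Cdc6 and 0.31 for Rpl32 with Ube2c. Among the members, Dtl with Cdc6 gave 0.90 over the 10 positive cells, 0.99 over those 6 and 0.68 over the 11 negative cells. Fzr1 with Ube2c gave 0.96, 0.89 and 0.16 in the same order.

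Exon bases are shared between 4 of the 10 genes and a gene on the opposite strand in the RefSeq annotation: Fzr1 with Mfsd12, Cdc20 with Elovl1, Ube2c with Tnnc2 and Ube2s with Rpl28. Whether the counting used strand is not given in the sources used here, so reads of those pairs cannot be told apart. Reads from the human geminin part of the transgene were not counted separately, and how far they add to Gmnn was not tested. The reads come from amplified RNA with no molecular identifiers named, so a count of 0 in 1 cell can also be a transcript that was not captured.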

How the data were processed

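Single-cell RNA was amplified as antisense RNA and sequenced from TruSeq libraries, per the labels' protocols. The authors deposited whole-number read counts, not normalised, of 14862 genes in 33 cells. The submitters' processing notes name CASAVA 1.8.2, STAR 2.4.0j, HTSeq 0.6.1p1 and build mm10, and the annotation and strand setting are not given in the sources used here. Spreadsheet dates had replaced 22 gene names, which stayed in the totals only.

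The 10 members and all gene lists were chosen with earlier results of these data known. Counts were summed by group and scaled to CPM with Python 3.11.15, numpy 2.4.6, scipy 1.17.1 and pandas 2.3.3. Ratios have exact binomial (Clopper-Pearson) and CPM exact Poisson intervals at 95%, for counting error only. A gene counts as higher or lower past 2-fold with 0.5 count added to each side and 10 or more counts over both groups. No p-value was computed. Named genes are the members, the 2 highest and 2 lowest of each list at E14.5, and the 5 genes most like Gmnn, Cdc6 and Ube2c with at least 20 CPM in both groups and a count in 15 of 21 cells; 1 gene chosen by this rule is not reported here. The closest pair of cells (G1 with G2) correlated at 0.867, so no cell was taken as a repeat of another. On data simulated for the E14.5 comparison over 14862 genes, 97% of intervals covered the true ratio of 200 changed genes. The simulated counts were Poisson, with the same mean in every cell of a group. This checks the calculation only, since the real cells of a group differ far more. Alternatives were TMM (edgeR 4.0.16) and DESeq2 1.42.0 size factors in R 4.3.3, other totals, minimum counts and levels, mean and median cells, thinning to 8.67 M counts, title ranges, cell type and leaving out each cell.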

Additional observations from a re-analysis of the deposited data

Results flagged for a closer look

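Within a group of 6 or 10 cells, a cell was noted where its gap to the nearest other cell exceeded Dixon's 95% limit for the range of that group. The limit assumes independent, normally distributed values, for which chance would give 1.5 of 30 combinations of gene and group. CPM here holds many zeros and the same cells recur across genes, so 1.5 is no measure for these cells. The limit was passed in 13 of the 30, and the 11 E14.5 negative cells are too many for it. In the E14.5 positive cells these were Cdc6 in G6 (49.7 CPM, next 23.03 in G8), Skp2 in G1 (27.4 CPM, next 7.15 in G6) and Fzr1 in G25 (66.2 CPM, next 28.5 in G29). In the P5 positive cells all 4 were in L2P12, the cell led by endothelial markers: Cdt1 (75.6 CPM, next 11.7), Cdc6 (38.9 CPM, next 0.0796), Skp2 (47.7 CPM, next 0.0798) and Dtl, which at 0.0444 CPM is 1 count beside 5 cells at 0. In the P5 negative cells L2N9 stood apart for Gmnn (181 CPM, next 29.7), Cdc6 (274 CPM, next 7.05), Fbxo5 (101 CPM, next 9.26) and Cdc20 (57.6 CPM, next 1.45). L2N4 stood apart for Dtl (593 CPM, next 73.0) and for Ube2c, at 1.55 CPM against 0.283.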

How the results depend on the processing

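No paired analysis was possible because each group is 1 sample and no test was made; what the title numbers and the prefixes L1 and L2 link is not given. For Gmnn at E14.5 (0.44) the log2 ratio was 0.52 from the mean and 0.80 from the median cell, 0.48 with TMM, 0.32 with DESeq2 factors, 0.33 after thinning, 0.29 without cells led by other markers, 2.28 in titles 1 to 10 and 0.18 in titles 21 to 30, and 0.14 to 0.68 with 1 cell left out. The 4 genes at least 2-fold higher became 7 by median and 8 in titles 1 to 10, and 4 to 6 with 1 cell left out. The 7 include Cdt1, Skp2 and Cdc20, whose median in the negative cells was 0, and not Fzr1, at 0.17 by median. For P5 positive over negative Gmnn (2.27) was 1.82 by mean, 4.23 by median, 2.41 with TMM, 2.37 without the 20 most abundant genes, 1.57 after thinning and 2.16 in titles beginning with L2 (chosen after seeing the data), and 1.66 to 4.71 with 1 cell left out, with 6 to 7 genes higher. For P5 over E14.5 positive cells (0.03) it was 0.14 by mean, 0.42 by median, 0.18 with TMM, 0.41 with DESeq2 factors, 0.22 after thinning and -0.29 without cells led by other markers, and -0.29 to 0.43 with 1 cell left out, with 3 to 5 genes higher. For P5 over E14.5 negative cells (-1.80) it was -1.16 by mean, -3.01 by median, -1.56 with DESeq2 factors and -1.02 after thinning, and -4.24 to -1.20 with 1 cell left out, with 2 to 6 genes higher. Ratios of other members past 2-fold that changed sign were, in titles 1 to 10, Cdc6 (4.57), Cdt1 (1.73) and Fzr1 (-0.92) at E14.5; without N24, Cdc6 at E14.5 (3.49) and Fbxo5 between negative groups (1.69); without L2N9, Cdc6 at P5 (2.69) and, between negative groups, Cdc6 (-3.22) and Cdc20 (-0.10); and Skp2 between positive groups by median (-5.53) and, without L2P12, which is also the cell type alternative (-6.38). Ratios within 2-fold changed sign more often: Dtl at E14.5 (-0.79) was 4.43 in titles 1 to 10, 0.14 by mean, 8.72 by median and 1.74 without N24, Dtl between negative groups (-0.69) was 1.83 without N24, Cdc6 between positive groups (0.63) was -8.16 without L2P12, and small ratios of Ube2s, Ube2c and Fzr1 also crossed 0. With 1 cell left out, Cdc6 ran from -1.93 to 3.49 at E14.5, -10.77 to 2.69 at P5 and -3.22 to 6.10 between negative groups, Fbxo5 from -5.73 to 1.69 and Cdc20 from -0.10 to 9.92 between negative groups, and Skp2 from -6.38 to 2.92 between positive groups. The cause was not tested. Comparisons with P5 negative cells have no cell type alternative, since none of those cells was left, and median ratios were left out where a median was 0. DESeq2 factors shifted the median of all genes by 0.38 between the positive groups, 0.24 between the negative groups and -0.12 at E14.5, and TMM by 0.16 between the positive groups and 0.14 at P5. Thinning left out 6 shallower cells.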
